A study of Mus musculus with 12 samples.

Results

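Serpins are a superfamily of proteins that share a fold with an exposed loop. In most members the loop is bait: a target protease cuts it, the serpin changes shape, and the protease stays trapped and inactive. Hepatocytes secrete many plasma serpins, among them alpha-1-antitrypsin, antithrombin and C1 inhibitor, and some members have lost inhibition and carry hormones or fold collagen instead. The family is named by clades, A to I. Members were taken as every gene whose symbol was Serpin followed by a clade letter, a number and at most 1 further letter, which left out pseudogenes whose symbols end in -ps. Serpina3h and Serpinb10 match the rule and are counted, although the GENCODE M21 annotation types them as a pseudogene and a polymorphic pseudogene. The rule found 64 of the 48537 genes in the deposited table. Of these, 29 had a mean of at least 1 TPM over all 12 livers and were tested for differences between groups. TPM, the deposited unit, is a level scaled by gene length and library total that can be compared between genes.

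The study measured RNA of whole mouse liver by stranded total RNA sequencing at zeitgeber time 10, in 3 groups of 4 livers, each liver a biological replicate. Control livers carried the genotype label wildtype and the title YFP. Livers labelled DKO were REV-ERBs double-knockout livers, also with YFP. Re-expression livers were titled DKO with REV-ERBalpha-WT, so REV-ERBalpha had been put back on the knockout background. REV-ERBalpha and REV-ERBbeta are nuclear receptors of the circadian clock that repress transcription. The column headings name YFP in all 3 groups and Cre in the DKO columns, so Cre and the loss of REV-ERBs cannot be told apart in the comparison with control livers. How Cre, YFP and REV-ERBalpha were delivered, and the sex and age of the mice, were not among the sources used here.

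Depth, as reads recovered from the TPM values, ran from 5621667 to 6906221 per library. The REV-ERBalpha gene Nr1d1 lay between 64.1 and 76.2 TPM in control livers, 74.8 and 91.7 in the DKO group and 171 and 217 after re-expression. The REV-ERBbeta gene Nr1d2 had means of 96.6, 90.4 and 97.7 TPM, so whole-gene RNA of the targets did not separate DKO from control livers in the direction of a loss. A deleted exon can leave the rest of a transcript in place, and the deleted part was not measured separately. Arntl, a clock gene that REV-ERBs are known to repress, was chosen after its values were seen and ran from 0.562 to 1.02 TPM in control livers, 18.3 to 21.4 in the DKO group and 13.5 to 15.98 after re-expression. The 6 matched hepatocyte markers summed to between 41755 and 47936 TPM in every liver. In bulk tissue, fewer cells of a type and less RNA per cell cannot be told apart.

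Serpin RNA made up between 2.83% and 3.49% of all TPM in a liver. The summed level was 32181 ± 2329 TPM in the control group, 29386 ± 915 in the DKO group and 30013 ± 339.8 after re-expression (SD, n = 4), and the ranges of the groups overlapped. Nearly all of it came from clade A, the secreted antitrypsin-like serpins, with 28156 ± 2145 TPM in control livers over 25 genes. Serpina3k, a mouse relative of human alpha-1-antichymotrypsin, was the member with the highest mean, at 9292 TPM over the 12 livers, and ranked 10th of all genes in the table. The 5 genes Serpina1a to Serpina1e, mouse copies of the gene for alpha-1-antitrypsin, whose human form inhibits neutrophil elastase, followed with means from 1313 to 4667 TPM. In all, 6 members had a mean of at least 1000 TPM, 15 of at least 100, and 10 of the tested members lay between 1 and 10.

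The smaller secreted clades were each carried by few genes at high levels. In control livers antithrombin (Serpinc1, clade C) stood at 497 ± 9.41 TPM, heparin cofactor II (Serpind1, clade D) at 789 ± 63.4, alpha-2-antiplasmin (Serpinf2, clade F) at 1051 ± 124, pigment epithelium-derived factor (Serpinf1, clade F) at 567 ± 63.4 and C1 inhibitor (Serping1, clade G) at 1088 ± 133. Clade B, whose members act inside cells, was the largest in genes and among the smallest in RNA: its 28 genes summed to 23.2 ± 3.27 TPM in the control group, 23.3 ± 2.39 in the DKO group and 23.7 ± 4.57 after re-expression. Of the 64 members, 21 had no read in any liver, 19 of them in clade B, with Serpina1f and Serpini2 the other two. A count of 0 allows up to 3 reads in a library, which for these genes is between 0.367 and 1.35 TPM, by counting error only. Another 14 members had a read in some liver and a mean under 1 TPM, among them Serpine2, an inhibitor of thrombin and urokinase, at 0.594 TPM, Serpina5, the protein C inhibitor, at 0.164 TPM, and Serpini1, neuroserpin, at 0.158 TPM. The plot of levels by liver shows the tested members of clades A to D and F to H in order.

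**Figure D1:**
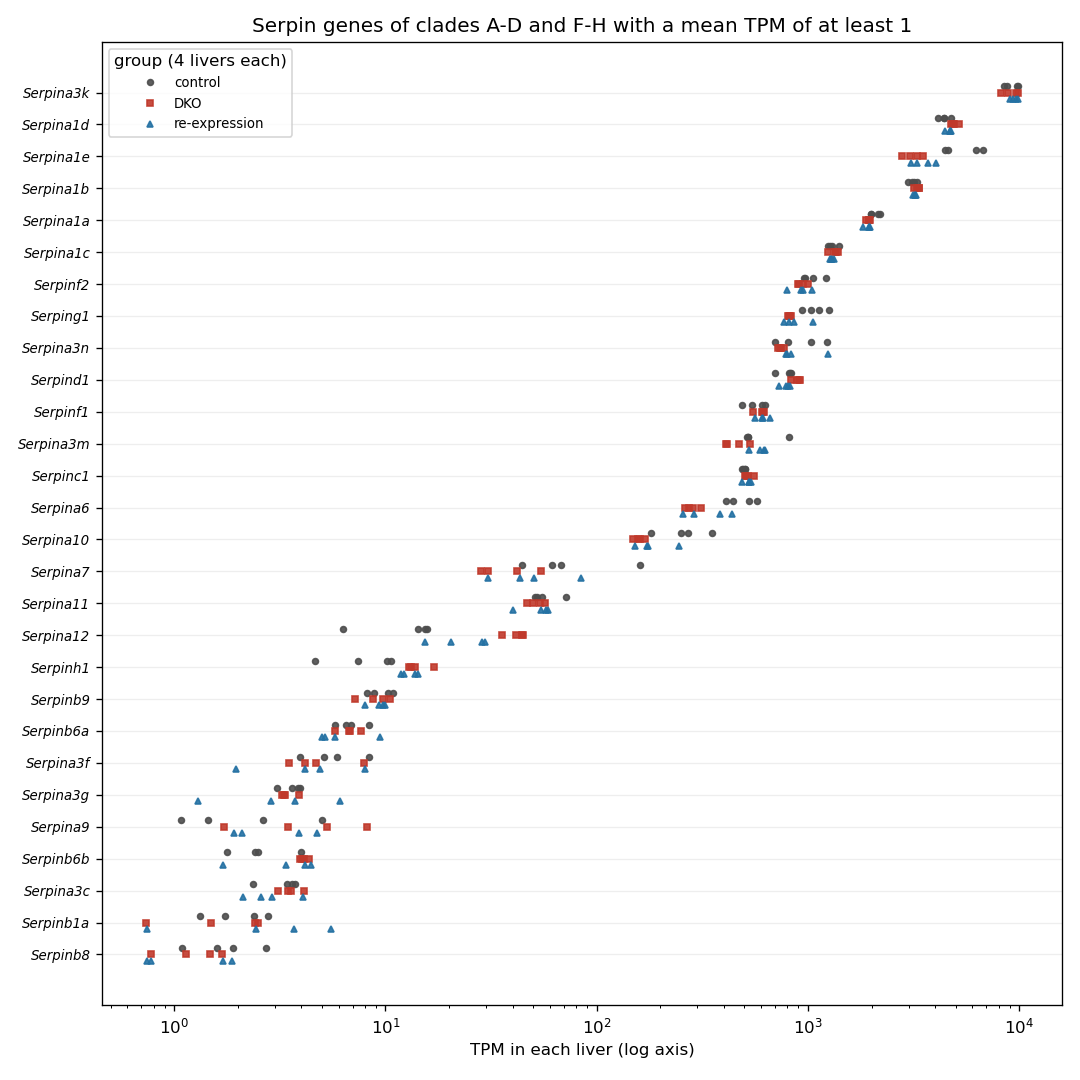
TPM of the tested serpin genes of clades A to D and F to H (rows, ordered by mean) in each of 12 livers on a log axis; circles are control livers, squares livers labelled DKO and triangles re-expression livers. Levels run from 1.46 TPM on average for Serpinb8 to 9292 TPM on average for Serpina3k. Livers labelled DKO stand apart from control livers at Serpina12, Serpinh1, Serpina1e and Serpina6, among others. Of these genes, only Serpina12 has livers labelled DKO apart from the re-expression livers too.

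On chromosome 12 of build mm10, 23 members lie within 799544 bases, from 103614786 to 104414329, among them all matched clade A members except Serpina7, which is on the X chromosome. In that cluster Serpina1e, among the Serpina1 copies, and Serpina12 gave the differences that held up in every alternative, so the DNA just before their start sites is shown, from RefSeq on GRCm38.p6, the assembly that mm10 names, read 5′ to 3′ on the minus strand. For each Serpina1 copy these are the last 120 bases before the annotated start, and the capitals mark GTTAAT, a core of sites bound by the hepatocyte factor HNF1. They lie at chr12:103863620-103863739 (Serpina1a), chr12:103738190-103738309 (Serpina1b), chr12:103904951-103905070 (Serpina1c), chr12:103773634-103773753 (Serpina1d) and chr12:103956898-103957017 (Serpina1e).
Serpina1a: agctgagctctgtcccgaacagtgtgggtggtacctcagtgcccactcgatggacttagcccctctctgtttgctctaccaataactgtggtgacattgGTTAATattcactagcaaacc
Serpina1b: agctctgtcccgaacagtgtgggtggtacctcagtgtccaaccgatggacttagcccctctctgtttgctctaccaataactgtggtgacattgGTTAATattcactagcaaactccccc
Serpina1c: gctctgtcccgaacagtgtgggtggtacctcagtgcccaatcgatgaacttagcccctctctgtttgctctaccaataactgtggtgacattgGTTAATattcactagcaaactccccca
Serpina1d: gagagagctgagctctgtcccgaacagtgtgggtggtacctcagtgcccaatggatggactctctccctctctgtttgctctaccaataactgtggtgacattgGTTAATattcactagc
Serpina1e: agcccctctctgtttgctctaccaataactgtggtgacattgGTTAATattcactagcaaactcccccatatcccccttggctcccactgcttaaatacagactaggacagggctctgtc

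Where they align, the windows hold similar DNA, and the last part of the Serpina1e window lies past the end of the others. Over 250 bases before the start, Serpina1e was 95.3% to 97.0% identical to the other copies over 189 to 200 aligned positions, and the other 4 copies were 91.4% to 95.5% identical to each other over 240 to 250. The RefSeq start of Serpina1e lies 51 to 62 bases farther downstream, while among the other copies the starts differ by 1 to 11 bases. GENCODE M21 starts every Serpina1 copy at another base than RefSeq. Its Serpina1e model begins at 103958975 and its Serpina1b model at 103830373, both upstream of the RefSeq starts. Its models of Serpina1a (103863562), Serpina1c (103904887) and Serpina1d (103773592) begin downstream of theirs. GTTAAT begins 78 bases before the RefSeq start of Serpina1e and 16 to 27 bases before the others. The offset and these distances hold for the RefSeq starts alone and are not a trait shown for Serpina1e.

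The 250 bases before the start of Serpina12, at chr12:104044444-104044693, are shown whole and without capitals, because none of the 6 motifs searched occurs in them.
Serpina12: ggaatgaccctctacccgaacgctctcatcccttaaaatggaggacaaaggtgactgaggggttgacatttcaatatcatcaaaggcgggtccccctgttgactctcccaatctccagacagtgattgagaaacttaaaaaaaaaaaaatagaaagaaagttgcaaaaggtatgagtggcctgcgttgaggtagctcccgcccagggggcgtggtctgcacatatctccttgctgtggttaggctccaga

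Core motifs of 6 kinds were searched on both strands in the 250 bases before each of 32851 mouse RefSeq starts. These cover 54 members, with 63 windows, and 21 of the tested ones. The called genes Serpina6 and Serping1, and Serpina10, Serpina3k and Serpina3m, are among the tested members without a window, so they were not searched. GTTAAT was present in 6.43% of all these windows and in 12 of the 63 member windows. They belong to 11 of the 54 members, 8 of them tested, the 5 Serpina1 copies, Serpina3c, Serpina7 and Serpinb8. AGGTCA, the core of the element that REV-ERBs read, was present in 14% of all windows and in 20 of the 63 member windows. They belong to 18 of the 54 members, of which 3 were tested, Serpina11, Serpinf1 and Serpinf2. TTCNNNGAA, the form read by STAT factors, was in 7.02% of all windows and in 10 of the 63 member windows. They belong to 8 members, of which Serpina11, Serpina3f, Serpina3g and Serpinb6a were tested. TTANNTAA, read by D-box factors, was in 5.43% of all windows and in 4 of the 63 member windows. They belong to 3 members, of which Serpina7 was tested, where it lies apart from the GTTAAT matches. None of the 54 members had the clock E-box CACGTG, found in 6.02% of all windows, or the HNF4 form CAAAGTCCA, found in 0.384%. A match describes letters in a window and is not a binding site, and no match says nothing about a factor.

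The first comparison asked which serpin genes differ with the label DKO. Between livers labelled DKO and control livers, 2 of 29 tested members rose and 3 fell by limma's moderated test with Benjamini-Hochberg adjustment over 17957 genes, at an adjusted p under 0.05. That is 17.24% of members, where 5.33% of all tested genes were called, 2.99% higher and 2.34% lower. Serpina12 and Serpinh1 rose, and Serpina1e, Serpina6 and Serping1 fell. The median difference over the 29 members was -0.07 on the scale of log2(TPM + 1), beside 0.00 over all tested genes, and 18 members lay below 0. An unadjusted p under 0.05 was found for 11 members and for 18.4% of all tested genes. The 4 livers of each group did not overlap for 10 members, 34.48%, where 11.5% of all tested genes had such groups. By clade, the calls were 3 of 17 tested genes in clade A, the only tested gene in each of clades G and H, and none of the 10 in clades B to F. Each p-value weighs a difference against the variation among replicate livers.

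**Figure D2:**
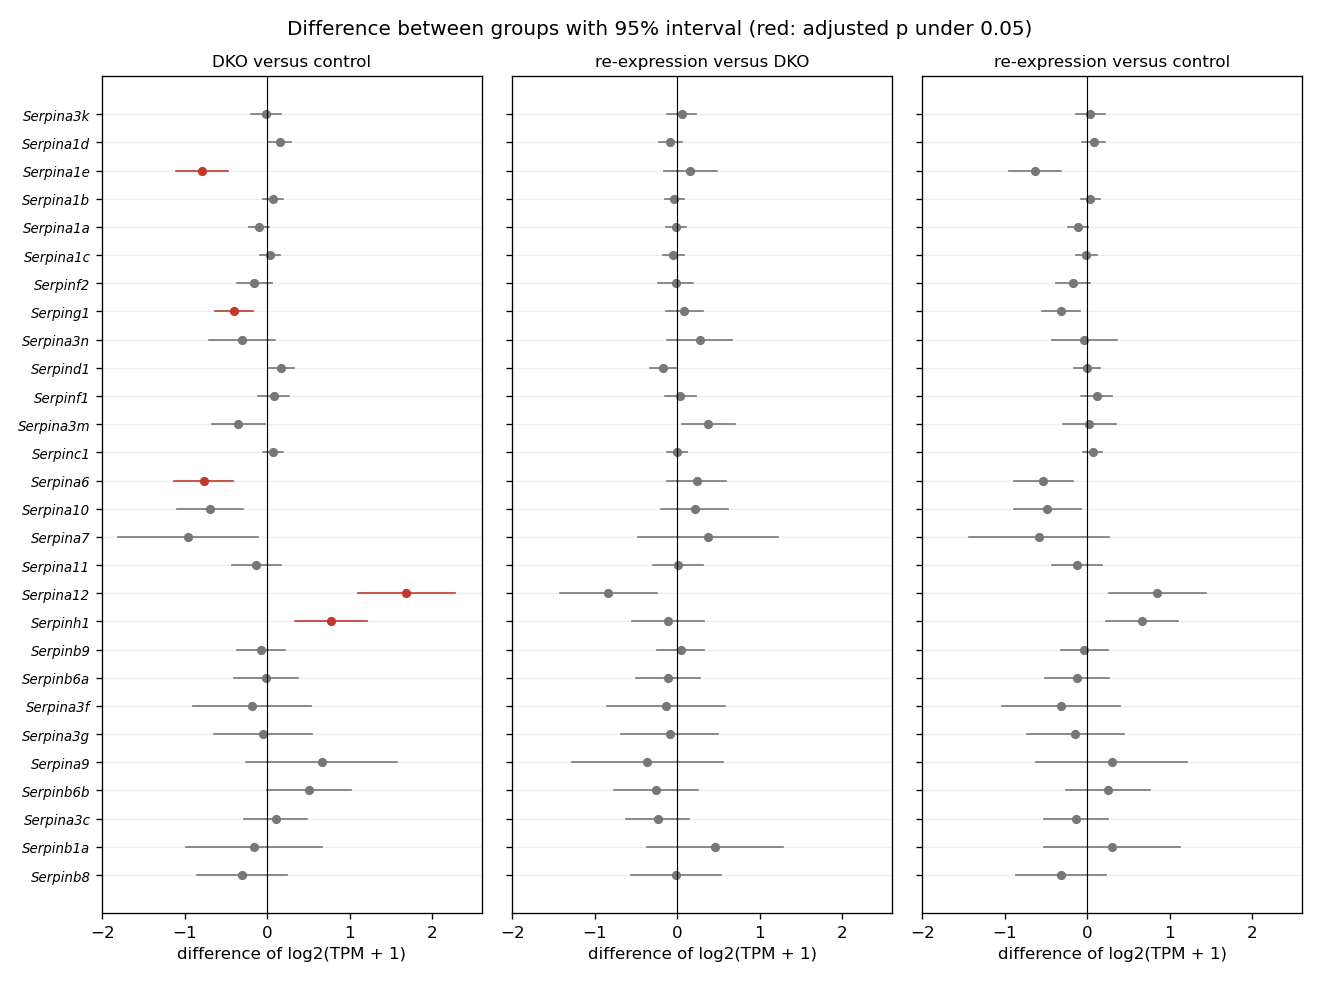
Difference of log2(TPM + 1) with its 95% interval for the tested members of clades A to D and F to H (rows) in the 3 comparisons (panels), from limma. Red marks an adjusted p under 0.05: there are 5 red genes in the panel of DKO versus control and none in the other 2 panels, where Serpina12 lies at -0.84 and 0.85.

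Serpina12 rose the most. It encodes vaspin, a secreted serpin first described in fat that inhibits the protease kallikrein 7. The 4 control livers had 6.32, 14.2, 15.4 and 15.7 TPM, the livers labelled DKO 44.4, 44.8, 35.8 and 41.4, and the re-expression livers 15.3, 29.8, 20.4 and 28.7. Every liver labelled DKO was thus above every liver of the other two groups, and the lowest re-expression liver was level with the highest control livers. From control to DKO the mean went from 12.9 ± 4.45 to 41.6 ± 4.17 TPM, a difference of 1.68 ± 0.27 (SE) on the log2 scale with a limma adjusted p of 0.00407. The call was made in all 23 alternative analyses, with differences from 1.40 to 1.79. The levels rest on 53 to 402 reads per liver, and none of the 50-base windows of its exons occurs in another gene.

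Serpina1e fell, and the other alpha-1-antitrypsin genes did not pass the test. Control livers had 4615, 6222, 6750 and 4477 TPM of Serpina1e, livers labelled DKO 2775, 3518, 3029 and 3278, and re-expression livers 3076, 3696, 3278 and 4051. All 8 livers on the knockout background lay below all 4 control livers, and the control livers fell into a lower and a higher pair. The difference from control to DKO was -0.79 ± 0.14 on the log2 scale with a limma adjusted p of 0.00905, and it was called in all 23 alternatives.

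The neighbouring copies differed by small amounts. From control to DKO, Serpina1d stood at 4421 ± 247 and 4928 ± 177 TPM, Serpina1b at 3130 ± 127 and 3289 ± 85.0, Serpina1a at 2076 ± 102 and 1938 ± 36.6, and Serpina1c at 1307 ± 67.8 and 1338 ± 61.4. The groups did not overlap for Serpina1d, higher in livers labelled DKO (difference 0.16, limma adjusted p 0.196), or for Serpina1a, lower there (-0.10, adjusted p 0.394). The 95% intervals reached from 0.02 to 0.29 for Serpina1d and from -0.22 to 0.02 for Serpina1a, and stayed within -0.09 and 0.19 for Serpina1b and Serpina1c. The sum of Serpina1a to Serpina1d was 10933 ± 478 TPM in the control group, 11493 ± 328 in the DKO group and 11076 ± 151 after re-expression. As a share of all 5 copies, Serpina1e went from 33.3% ± 3.74 in control livers to 21.5% ± 1.43 in livers labelled DKO, and was 24.1% ± 2.06 in re-expression livers. Serpina1e was the copy with the most RNA in every control liver, and Serpina1d in every liver of the other groups.

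How well reads tell these copies apart differs between them. Of the 50-base windows in their exons, 65.4% occur in no other gene for Serpina1e, 70.5% for Serpina1b, 49.1% for Serpina1d, 42.4% for Serpina1a and 20.7% for Serpina1c. Whether reads with several matches were counted is not stated in the labels, so the split among copies is uncertain, most of all for Serpina1c, which also shares 31.5% of its exonic bases with B430119L08Rik on the opposite strand.

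**Figure D3:**
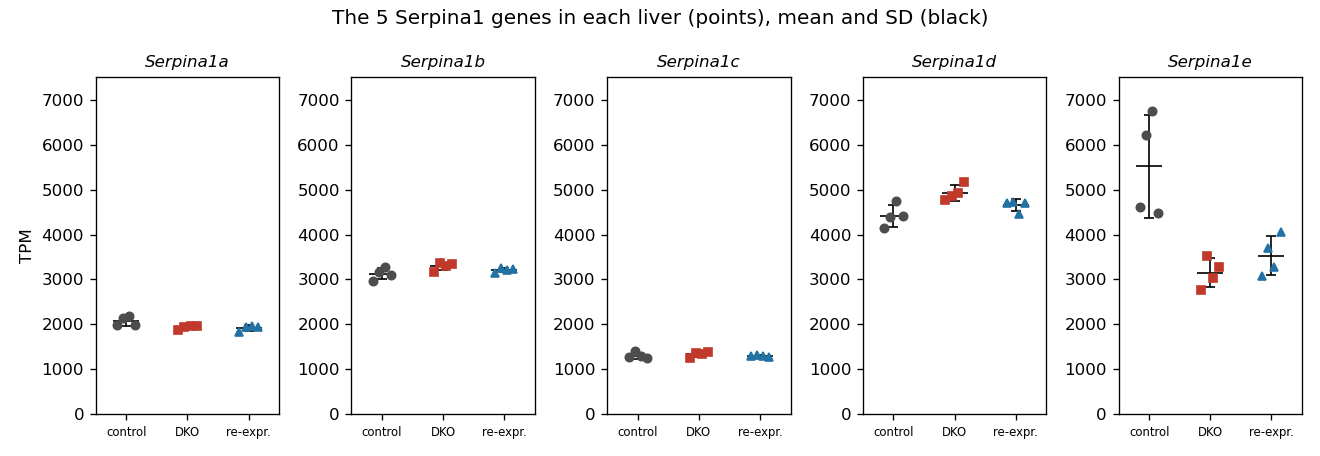
TPM of Serpina1a to Serpina1e in each liver (points), with the mean and SD of 4 livers in black, all panels on the same axis from 0. Serpina1e drops from 5516 to 3150 TPM on average between control livers and livers labelled DKO, and the means of the other 4 copies keep their order.

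Serpina6 fell as well. It encodes corticosteroid-binding globulin, the plasma carrier of glucocorticoids, and is not an inhibitor. Control livers had 575, 439.8, 409.8 and 524 TPM, livers labelled DKO 274, 313, 284 and 262, and re-expression livers 439.4, 384, 256 and 288. Control and DKO livers did not overlap, and the re-expression livers were spread over both ranges. The difference from control to DKO was -0.77 ± 0.16 with a limma adjusted p of 0.0194. The call was made in 20 of 23 alternatives and missed without control replicate 1 (adjusted p 0.0573), DKO replicate 1 (0.0554) or DKO replicate 4 (0.0609).

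Serpina7, the other hormone carrier of the family, encodes thyroxine-binding globulin. Its control livers had 160, 61.7, 44.5 and 67.8 TPM, livers labelled DKO 54.6, 30.4, 41.8 and 28.3, and re-expression livers 84.6, 43.5, 50.4 and 30.7. The difference from control to DKO was -0.96 ± 0.39 with a limma adjusted p of 0.210, and the groups overlapped. Much of it rests on control replicate 1, without which the difference was -0.59 with an adjusted p of 0.424. Ttr, transthyretin, another plasma carrier of thyroxine, rose by 0.32 ± 0.07 (limma adjusted p 0.0250).

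Serping1 fell by 0.40 ± 0.10 on the log2 scale in livers labelled DKO (limma adjusted p 0.0455). Its product, C1 inhibitor, blocks the complement proteases C1r and C1s and plasma kallikrein. Control livers had 1253, 1036, 1122 and 940.3 TPM, livers labelled DKO 826, 827, 806 and 809, and re-expression livers 859, 814, 1052 and 773. The DKO livers lay close together and below all control livers, and re-expression replicate 3 stood among the control livers. The call is close to the threshold. It was made in 10 of 23 alternatives and missed in 13, with adjusted p up to 0.116, including without any 1 of control replicates 1 to 3, DKO replicates 1 to 4 and re-expression replicates 1 and 2.

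Serpinh1 rose by 0.78 ± 0.20 (limma adjusted p 0.0459). It encodes HSP47, which stays in the endoplasmic reticulum and helps collagen fold, and its RNA was low in these livers: 4.64, 7.42, 10.6 and 10.2 TPM in control livers, 13.2, 13.8, 16.9 and 12.99 in the DKO group and 11.8, 14.3, 13.8 and 12.2 after re-expression. All 8 livers on the knockout background were above all control livers. The counts behind these values were 25 to 52 reads in control livers and 65 to 87 in livers labelled DKO. The call was made in 8 of 23 alternatives, with adjusted p up to 0.124, and was missed without any 1 of control replicates 1 and 2, the DKO replicates or the re-expression replicates.

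Some markers of other liver cells were also higher in the DKO group. Of 11 markers of stellate cells and fibroblasts, 4 rose between control livers and livers labelled DKO (Colec11, Dcn, Lrat and Reln) and none fell, where 2.99% and 2.34% of all tested genes did. The 11 markers had a median difference of 0.49, beside 0.00 over all tested genes. Their summed level was between 266 and 403 TPM in control livers, 439.4 and 485 in the DKO group and 371 and 449.9 after re-expression, and none of the 11 was at 0 in all livers. Of 9 markers of sinusoidal endothelium none passed the test, with a median difference of 0.34 and summed levels of 232 to 265 TPM in control livers, 279 to 345 in the DKO group and 183 to 278 after re-expression. Of 5 red blood cell markers none passed either, with a median difference of 0.85 and summed levels of 276 to 382, 399.9 to 686 and 372 to 835 TPM. Among 4 tested cholangiocyte markers Sox9 rose, from 2.04 ± 0.589 TPM in control livers to 8.97 ± 2.33 in the DKO group (SD, n = 4). Krt19 (difference 0.40), Epcam (0.17) and Spp1 (-0.22) were not called. The 6 matched cholangiocyte markers summed to between 74.5 and 104.7 TPM in control livers and 76.9 and 86.5 in the DKO group, so this sum did not rise. The part of these cells in the Serpinh1 result was not tested.

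**Figure D4:**
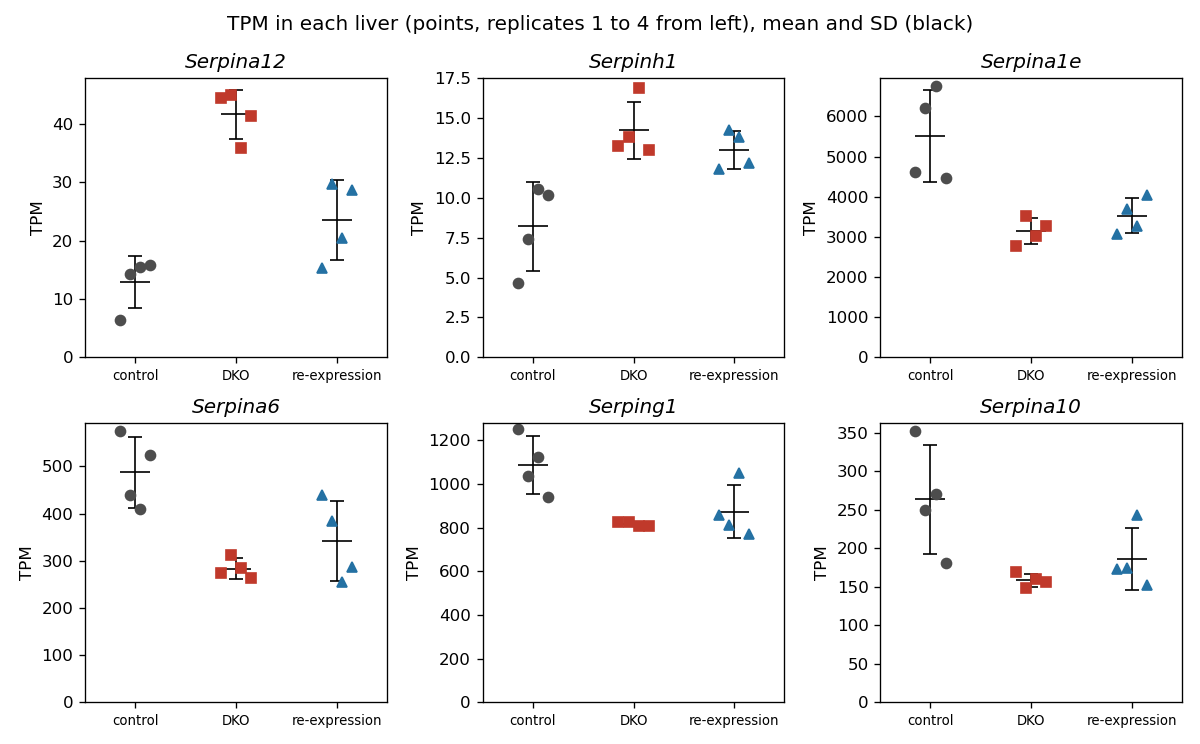
TPM in each liver (points, replicates 1 to 4 from left) of the 5 called members and Serpina10, with mean and SD of 4 livers in black and every axis from 0. Livers labelled DKO stand clear of control livers in all 6 panels, and for Serpina12 the re-expression mean of 23.6 TPM lies between those of the other groups.

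Serpina10, Serpinc1, Serpind1 and Serpinf2, which act on coagulation or fibrinolysis, did not pass the test. Serpina10, the protein Z-dependent inhibitor of factor Xa, came closest. Control livers had 352, 250.1, 271 and 181 TPM, livers labelled DKO 169, 148, 160.0 and 157, and re-expression livers 174, 175, 244 and 152. No liver labelled DKO reached the lowest control liver. The difference was -0.69 ± 0.18 with a limma adjusted p of 0.0520, and 7 of 23 alternatives called it, among them those without control replicate 4 (0.0125) or re-expression replicate 3 (0.0361).

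Serpinc1, antithrombin, had 497 ± 9.41 TPM in control livers and 521 ± 22.7 in livers labelled DKO, a difference of 0.07 with a 95% interval from -0.05 to 0.19. Of its exonic bases, 34.4% overlap Zbtb37 on the opposite strand. Serpind1, heparin cofactor II, which inhibits thrombin, had 827, 823, 812 and 695 TPM in control livers and 902, 921, 831 and 887 in livers labelled DKO. Its groups did not overlap, the difference was 0.17 and the limma adjusted p was 0.232. Serpinf2, alpha-2-antiplasmin, the main plasma inhibitor of plasmin, differed by -0.16 with an interval from -0.37 to 0.05.

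The Serpina3 genes, relatives of alpha-1-antichymotrypsin, number 11 in the table and 6 were tested. None was called in any of the 3 comparisons. Serpina3k held 81.0% to 89.4% of their summed TPM, and its mean was 9251 ± 707 TPM in control livers, 9151 ± 767 in the DKO group and 9473 ± 332 after re-expression. The 95% interval of its difference from control to DKO ran from -0.20 to 0.16. Serpina3k and Serpina3m share an annotated start and a few percent of exonic bases, and 86% and 80.9% of their 50-base windows occur in no other gene.

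Serpina3n and Serpina3m were the Serpina3 genes with the widest spread among those above 100 TPM. Serpina3n, an acute phase serpin that inhibits granzyme B, had 1233, 808, 1029 and 696 TPM in control livers, 721, 771, 746 and 737 in the DKO group and 829, 795, 1250 and 783 after re-expression. The DKO livers sat together, and control replicates 1 and 3 and re-expression replicate 3 stood above 1000. The difference from control to DKO was -0.31 ± 0.18 (limma adjusted p 0.415). Serpina3m had 815, 513, 520.0 and 519.6 TPM in control livers, 474, 532, 411 and 414 in the DKO group and 592, 620.4, 629 and 525 after re-expression, with a difference of -0.35 ± 0.15 (limma adjusted p 0.232). Control replicate 1 alone stood far above the other control livers.

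The livers with high Serpina3n also had high levels of other acute phase genes, whose RNA the liver makes in inflammation. Of 20 such genes outside the family, 8 fell between control livers and livers labelled DKO and none rose, where 2.34% and 2.99% of all tested genes did. The 20 genes had a median difference of -0.84. Their summed level was 37849, 25922, 36692 and 22916 TPM in control livers 1 to 4, between 19836 and 21837 in livers labelled DKO, and 20627, 19722, 28539 and 18819 in re-expression livers 1 to 4. Control replicates 1 and 3 and re-expression replicate 3 were highest in their groups for this sum, as they were for Serpina3n and Serping1. For Serpina10 the same 3 livers led their groups. Other called members did not follow this order. For Serpina6, control replicate 3 (409.8 TPM) and re-expression replicate 3 (256) were the lowest of their groups, while control replicate 1 was the highest. For Serpina1e, control replicate 1 was in the lower pair (4615 TPM), and re-expression replicate 4 was the highest of its group (4051). Kupffer cell markers summed to 1155 TPM in control replicate 1 and 1134 in re-expression replicate 1 and to between 472 and 861 elsewhere. In re-expression replicate 1 the markers disagreed: Cd5l (371.7 TPM) and Marco (230.7) were the highest of the 12 livers and Clec4f (41.7) was the lowest. None of the 11 Kupffer cell markers was called, and their median difference from control to DKO was -0.36. Whether these levels bear on the serpin differences was not tested.

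**Figure D5:**
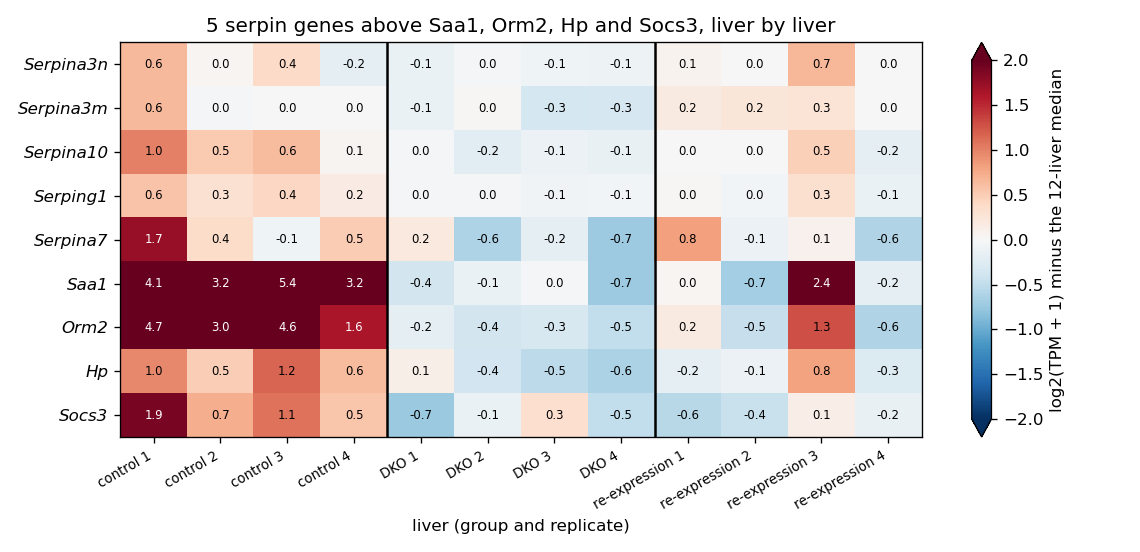
Deviation of log2(TPM + 1) from the median of 12 livers (colour and printed value) for 5 serpin genes and for Saa1, Orm2, Hp and Socs3, picked for display after their values were seen. Re-expression replicate 3 is the highest of its group in every row but Serpina7, and Serpina3n reached 1233 TPM in control replicate 1 and 1250 in re-expression replicate 3, against 721 to 771 in livers labelled DKO.

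Levels varied less among livers labelled DKO than among control livers. The SD of log2(TPM + 1) was smaller in DKO livers for 23 of 29 members, 79.3%, and for 65.0% of all tested genes. The median SD over members was 0.22 in control livers, 0.12 in the DKO group and 0.25 after re-expression, beside 0.26, 0.20 and 0.22 over all tested genes. These are descriptions of 4 livers per group and were not tested.

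In clade B, 5 of 28 genes were tested and none was called. Serpinb9, the cytosolic inhibitor of granzyme B, had 9.53 ± 1.25 TPM in control livers and 9.02 ± 1.44 in livers labelled DKO. Serpinb6a, an inhibitor found in the cytosol of many cell types, had 6.86 ± 1.07 and 6.73 ± 0.791, and 29.3% of its exonic bases overlap genes on the opposite strand. Serpinb1a, an inhibitor of neutrophil elastase inside leukocytes, and Serpinb8 were near 2 TPM with wide spread. Serpinb6b had 2.42, 2.498, 1.77 and 3.99 TPM in control livers and 3.93, 4.12, 4.01 and 4.35 in livers labelled DKO, so that control replicate 4 reached the DKO range, and the difference was 0.51 with an interval from -0.00066 to 1.02 (limma adjusted p 0.273). This gene had 8 to 21 reads per liver in these groups, and a change within this interval was not resolved.

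None of the remaining members passed the test. Serpinf1, pigment epithelium-derived factor, an anti-angiogenic serpin without inhibitory activity, had 567 ± 63.4 TPM in control livers, 596 ± 30.4 in the DKO group and 611 ± 40.0 after re-expression. Serpina11 had 57.5 ± 9.46, 52.1 ± 4.59 and 52.8 ± 8.59 TPM, and shares 40.8% of its exonic bases with Gm28577 on the same strand. Serpina9, Serpina3c, Serpina3f and Serpina3g lay under 10 TPM in every liver, and their differences from control to DKO were 0.66, 0.10, -0.18 and -0.05, none called.

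The second comparison asked what changes when REV-ERBalpha is put back. Between re-expression livers and livers labelled DKO no member was called by limma, where 0.0724% of all tested genes were called, 0.0278% higher and 0.0446% lower. A fit of voom weights on recovered reads called none either, and 3 members had an unadjusted p under 0.05, Serpina12, Serpind1 and Serpina3m, as did 6.19% of all tested genes. The median difference was -0.01 over members and 0.01 over all tested genes. The groups did not overlap for 4 members, 13.79%, where 4.25% of all tested genes had such groups: Serpina12, Serpind1 and Serpina1d were lower in re-expression livers and Serpina3n was higher. For Serpina12 the difference was -0.84 with a 95% interval from -1.42 to -0.25 and a limma adjusted p of 0.498. For Serpind1 it was -0.17, from -0.33 to -0.02, with an adjusted p of 0.741. For Serpina1e the interval ran from -0.16 to 0.48, for Serpina6 from -0.12 to 0.59, for Serping1 from -0.14 to 0.31 and for Serpinh1 from -0.55 to 0.32, so shifts in either direction within these bounds were not resolved.

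The third comparison set re-expression livers against control livers. No member was called by limma, where 1.82% of all tested genes were, 1.16% higher and 0.663% lower, and 6 members had an unadjusted p under 0.05, as did 12.5% of all tested genes. The groups did not overlap for 3 members, 10.34%, where 7.28% of all tested genes had such groups: Serpinh1 was higher in re-expression livers, and Serpina1e and Serpina1a were lower. Serpina1e came closest to a call, with a difference of -0.63 ± 0.14 and a limma adjusted p of 0.0526, and 4 of 23 alternatives called it, 1 of them the voom fit (adjusted p 0.0105) and 1 the fit without control replicate 4 (0.0363). Serpinh1 differed by 0.66 (adjusted p 0.150), Serpina6 by -0.53 (0.156), Serping1 by -0.32 (0.192) and Serpina12 by 0.85 (0.175). The 3 comparisons share groups in pairs, so their values are given side by side and not counted as separate support.

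Along the chromosome 12 cluster the called genes did not sit together. In order from the lowest coordinate, Serpina10 (-0.69 from control to DKO, not called) and Serpina6 (-0.77) are adjacent and point the same way. Next come Serpina16 and Serpina1f, not tested, then Serpina1b, Serpina1d, Serpina1a and Serpina1c, with differences from -0.10 to 0.16, and Serpina1e (-0.79). Serpina11 (-0.13) and Serpina9 (0.66), not called, separate Serpina1e from Serpina12 (1.68). All members from Serpina10 to Serpina12 are on the minus strand, called or not, so the strand does not set the called genes apart. The Serpina3 genes beyond them held no call.

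The proteases that serpins inhibit and the genes that work with them were set beside all tested genes, of which 2.99% rose and 2.34% fell between control livers and livers labelled DKO. Of 19 tested target proteases, 2 rose between control livers and livers labelled DKO and none fell, with a median of -0.03: F11, coagulation factor XI, rose by 0.74 ± 0.12 (limma adjusted p 0.00433) and Ctsl, cathepsin L, by 0.34 ± 0.08 (0.0283). Of 13 cofactors, cargo genes and clearance receptors, Ttr alone was called, with a median of 0.17. None of 3 tested renin-angiotensin genes was called, among them Agt, angiotensinogen, a serpin by fold whose symbol falls outside the rule (0.19 ± 0.13, adjusted p 0.487).

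Protease inhibitors of other families were called in both directions. Of 23 tested, 5 rose and 1 fell between control livers and livers labelled DKO, with a median of 0.10, where 2.99% and 2.34% of all tested genes did. Mug1 and Mug2, murinoglobulins that trap proteases as alpha-2-macroglobulin does, rose by 0.41 and 0.59, Itih1 and Itih2, heavy chains of the inter-alpha inhibitor, by 0.33 and 0.35, and Timp3, an inhibitor of matrix metalloproteases, by 0.60. Ambp, which encodes bikunin, the light chain of the same inter-alpha inhibitor, fell by 0.38 (limma adjusted p 0.0180). Mug1 and Mug2, like Saa1 and Saa2 among the acute phase genes, are similar copies between which reads may have been split.

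Other lists gave the setting, first between control livers and livers labelled DKO, where 5.33% of all tested genes were called. Of 14 genes of IL-6, IL-1 and STAT3 signalling, 3 fell and none rose, Socs3 by 1.32, Nfkbiz by 0.91 and Stat3 by 0.51, with a list median of -0.20. Among hepatocyte transcription factors, Stat5b rose by 0.44 and Cebpa fell by 0.24. Of 13 tested sex-biased liver genes, Cyp2a4 and Elovl3 rose and Cyp4a12a fell by 1.07. Of 17 genes of quality control in the endoplasmic reticulum, where serpins are folded, Hspa5, the chaperone BiP, rose by 0.66 ± 0.16 (limma adjusted p 0.0393) and none fell. Between re-expression livers and livers labelled DKO no gene of these 9 lists was called, where 0.0724% of all tested genes were. Between re-expression and control livers, Mug1 rose, and Ambp, Stat3 and 6 of the 20 acute phase genes fell, where 1.82% of all tested genes were called.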

How the data were processed

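RNA of 12 mouse livers was read from a deposited table of TPM values computed by the authors. The submitters' processing notes name featureCounts 2.0.1, STAR 2.7.1a, DESeq2 1.36.0, bcl2fastq 2.17 and SAMtools 1.9, and the build mm10. The strand setting and the treatment of reads with several matches are not given in the sources used here. The table's gene lengths, deposited by the authors, were multiplied into the TPM values, less an offset of 199 bases, and gave whole reads within 0.01 for 100% of values. These recovered reads gave the depth and a voom alternative.

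Genes whose mean TPM reached 1 were tested on log2(TPM + 1) with limma 3.58.1 (R 4.3.3), with 3 group means, 9 residual degrees of freedom, a variance trend, two-sided, Benjamini-Hochberg over 17957 genes. A fold on this scale understates changes of low genes. Alternatives, 23 in all, varied the pseudocount, filter, scaling, samples, weights, block and test. Named genes were all members and, of each list, the called genes and up to 4 more with the smallest p. Members and lists were chosen with earlier results of these data known. Positions came from GENCODE M21, matched for 63 members (all but Serpina3g). Promoters came from RefSeq (GRCm38.p6). The authors' 3 numbered comparisons are unnamed in the file headers and were not used. The values of 1 tested member are not reported here.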

Additional observations from a re-analysis of the deposited data

Results flagged for a closer look

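In 7 of the 87 sets of 4 livers, formed by each tested member in each group, the highest or lowest liver was separated from its nearest neighbour by more than Dixon's 95% critical share of the whole range, and chance alone gives about 1 in 20. Serpina3m stood at 815 TPM in control replicate 1, against 520.0 in the next liver. Serpina3n stood at 1250 TPM in re-expression replicate 3, against 829. Serpina12 was low in control replicate 1, at 6.32 TPM against 14.2, and without that liver its difference from control to DKO was 1.40. Serpina1d was low in re-expression replicate 3, at 4454 TPM against 4711, and Serpind1 was low in control replicate 4, at 695 TPM against 812. At low levels, Serpinb6a was high in re-expression replicate 1, at 9.38 TPM against 5.75, and Serpina3g in DKO replicate 3, at 3.88 TPM against 3.35.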

How the results depend on the processing

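Serpina12 and Serpina1e kept their direction and call between control livers and livers labelled DKO in all 23 alternatives, Serpina6 in 20, Serping1 in 10 and Serpinh1 in 8. The count of 5 called members became 3 with no filter on low values and 3 with the 8 livers of the comparison alone, and ran from 2 to 6 when each liver was left out in turn. Between re-expression livers and livers labelled DKO it was 0 in every alternative. Between re-expression and control livers the count of 0 became 1 with a filter at a mean TPM of 5, 1 with a robust prior and 1 with voom on recovered reads, and ran from 0 to 1 with each liver left out, the 1 being Serpina1e in each case. With the replicate number as a block, 7 members were called between control livers and livers labelled DKO, adding Serpina10 and Serpina7, and 0 in the other comparisons; livers of the same number showed no shared deviation in every pair (correlations from -0.0688 to 0.137), so the numbers are not taken as a pairing. Members called in no setting of a comparison changed sign in some alternative in 6, 10 and 8 cases of 29 in the 3 comparisons. In the main fit, all of these had differences of at most 0.16 in size on the log2 scale. The causes were not tested. Depth limits the 10 members between 1 and 10 TPM.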

Other observations

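A pseudogene of the cluster, Serpina4-ps1, falls outside the family rule, and its values are given because they stood out once seen. Control livers had 370.2, 783, 123 and 497 TPM, livers labelled DKO 154, 89.5, 898 and 211, and re-expression livers 175, 1257, 91.9 and 515. High and low livers occurred in all 3 groups, whose ranges overlapped.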
